A study of Mus musculus with 18 samples.

Results

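The response of NIH-3T3 cells to IFNα without the translational inhibitor CHX was measured on 6 of the 18 arrays of the series. They were 3 of cells given IFNα and 3 of mock-treated cells, assigned by their labels. The comparison itself was chosen with earlier results of these data known. NIH-3T3 is an established line of mouse fibroblasts. The cells of all 6 samples received DMSO, the solvent control for CHX, for 15 min, and then either mock treatment or 100 U/ml IFNα for 1 h. During the last 30 min (30 to 60 min of treatment) 4-thiouridine (4sU) was present at 500 µM, and the 4sU-labelled RNA was purified, so that the arrays show RNA made in that interval and not the RNA already in the cell. The mouse arrays (Affymetrix MG430 2.0) carry probe sets, each a group of short probes read as 1 value. Some probe sets are annotated with several genes and some with none. The study calls the 3 arrays of a treatment biological replicates. Nothing in the labels names separate cultures, so the p-values measure the spread between these arrays. The other 12 arrays, 3 for each of IFNγ, CHX alone, CHX with IFNα and CHX with IFNγ, entered the estimate of the spread, and 9 of them are compared with the IFNα response further on.

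Type I IFNs such as IFNα bind a receptor of the chains IFNAR1 and IFNAR2 and activate the kinases JAK1 and TYK2. These phosphorylate STAT proteins, and STAT2 together with IRF9 forms part of the complex ISGF3, which binds the IFN-stimulated response element (ISRE) in promoters. IFNγ has a receptor of its own and acts mainly through a STAT dimer that binds the gamma-activated site (GAS). The genes induced encode antiviral effectors, sensors of foreign RNA and DNA, proteins of antigen presentation and inhibitors of the pathway itself, and fibroblasts are among the cells that respond.

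Each probe set has 1 linear intensity per array, which the authors had normalized. Over all probe sets the array medians lay between 9.6 and 10 on the 6 arrays, and any pair of these arrays correlated with r of at least 0.976 across the probe sets tested. The 27773 probe sets with the highest value on any of the 18 arrays (8.5 or more) were tested with limma on the log2 scale. A call required an adjusted p under 0.01 (Benjamini-Hochberg over all of them) and a change of at least 2-fold. The brightest probe set on average stood for each of 12121 genes. Intensities of different probe sets cannot be set against each other. All 15 fibroblast markers were tested, among them *Vim* and *Fn1*, and none was called (median log2 change -0.20, 0 higher and 2 lower at an unadjusted p under 0.05 by limma). Their summed intensity was 78749.5 to 82034.9 on the mock arrays and 73174 to 75614.3 on the IFNα arrays, so the groups did not overlap, and the part of this in the results was not tested. The sum adds linear intensities of different probe sets, so the brightest weigh most. For the 9 housekeeping genes it was 88269.1 to 93622.3 on the mock arrays and 78306.1 to 89624.6 on the IFNα arrays, with overlap. All 6 samples are bulk samples of 1 cell line, and the sum measures neither the number of cells nor the RNA per cell. Of the leukocyte markers 9, with *Ptprc* among them, stayed below the filter. So did all 8 endothelial and 4 of the epithelial markers. The summed intensity of the 5 leukocyte markers tested was 273.7 to 359.7 on the mock arrays and 271.5 to 377.5 on the IFNα arrays.

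The changes that passed the test were mostly rises. Of the 12121 genes, 72 (0.594%) were raised and 6 (0.0495%) lowered, while the median log2 change of all genes was -0.0044. At an unadjusted p under 0.05, 325 genes were higher and 628 lower. Among the 72 genes, 22 rose 2- to 4-fold, 24 rose 4- to 16-fold, 20 rose 16- to 64-fold and 6 rose 64-fold or more, with a median log2 change of 2.96 and a range of 1.01 to 7.22. In all 72 the lowest IFNα array lay above the highest mock array, which the call itself makes likely. At the level of probe sets 128 were raised and 11 lowered. Of the 128, 28 carry no single gene symbol and are left unnamed, among them the largest rise of all (7.39). Of the 72 genes 58 kept the call without any single array. When only the 6 arrays were fitted, 22 genes lost it (adjusted p = 0.0101 to 0.213): *Irf7*, *Oas1b*, *Ifi47*, *Tlr3*, *Tapbp*, *B2m*, *Trim12c*, *Trim30a*, *Trim30d*, *Phf11d*, *Znfx1*, *Rnf31*, *Mitd1*, *Ifitm3*, *Apol6*, *Ifi207*, *Tdrd7*, *N4bp1*, *Msrb3*, *Tcirg1*, *Adar* and *Tmcc3*.

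**Figure D1:**
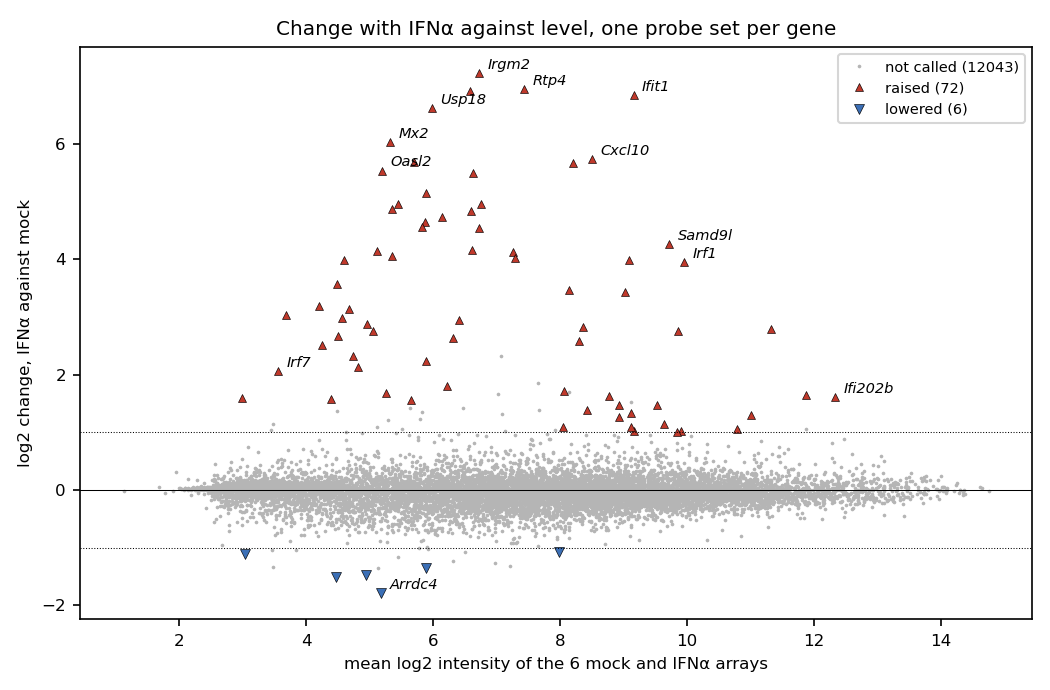
Log2 change with IFNα against mock (vertical axis) and mean log2 intensity of the 6 arrays (horizontal axis) for 12121 genes, 1 probe set each. Triangles mark the 72 raised and 6 lowered genes and grey points the 12043 not called; dotted lines mark a 2-fold change. The raised genes reach 7.22, whereas no called fall is below -1.79.

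The 6 genes that rose 64-fold or more were led by a GTPase and a chaperone gene. *Irgm2* encodes an immunity-related GTPase that acts against intracellular pathogens. Its intensity was 9.0, 7.6 and 9.5 in the mock arrays and 1547, 1301 and 1078 in the IFNα arrays, a log2 change of 7.22 (SE 0.14, adjusted p = 2.88e-13). *Rtp4* encodes a transporter-like chaperone of membrane receptors and measured 15.7, 19.5 and 12.4 in the mock arrays and 2022, 1989.6 and 1744 in the IFNα arrays, which gave 6.94 (SE 0.24, adjusted p = 1.85e-10). In both genes every IFNα array was far above every mock array. *Igtp*, a relative of *Irgm2*, measured 6.7, 9.9 and 10.1 in the mock arrays and 1142, 1089.8 and 949 in the IFNα arrays and changed by 6.92 (SE 0.23, adjusted p = 1.25e-10). The product of *Ifit1* recognises viral RNA that lacks the cap methylation of host RNA. Its probe set was already well above the filter without IFN, at 52.1, 58.3 and 50.1 in the mock arrays and 6470.2, 6037 and 5933 in the IFNα arrays, and changed by 6.85 (SE 0.19, adjusted p = 1.57e-11). *Usp18*, which removes the ubiquitin-like modifier ISG15 from proteins and dampens signalling at the IFNα receptor, was near the bottom of the scale without IFN. Its values were 6.5, 6.5 and 6.2 in the mock arrays and 659, 650.3 and 578 in the IFNα arrays, a change of 6.62 (SE 0.15, adjusted p = 1.41e-12). *Mx2*, an antiviral GTPase of the dynamin family, measured 5.1, 4.9 and 4.9 in the mock arrays and 326, 346 and 305 in the IFNα arrays, a change of 6.03 (SE 0.08, adjusted p = 5.66e-15). The 3 IFNα arrays of *Mx2* differed little and did not overlap with the mock arrays.

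**Figure D2:**
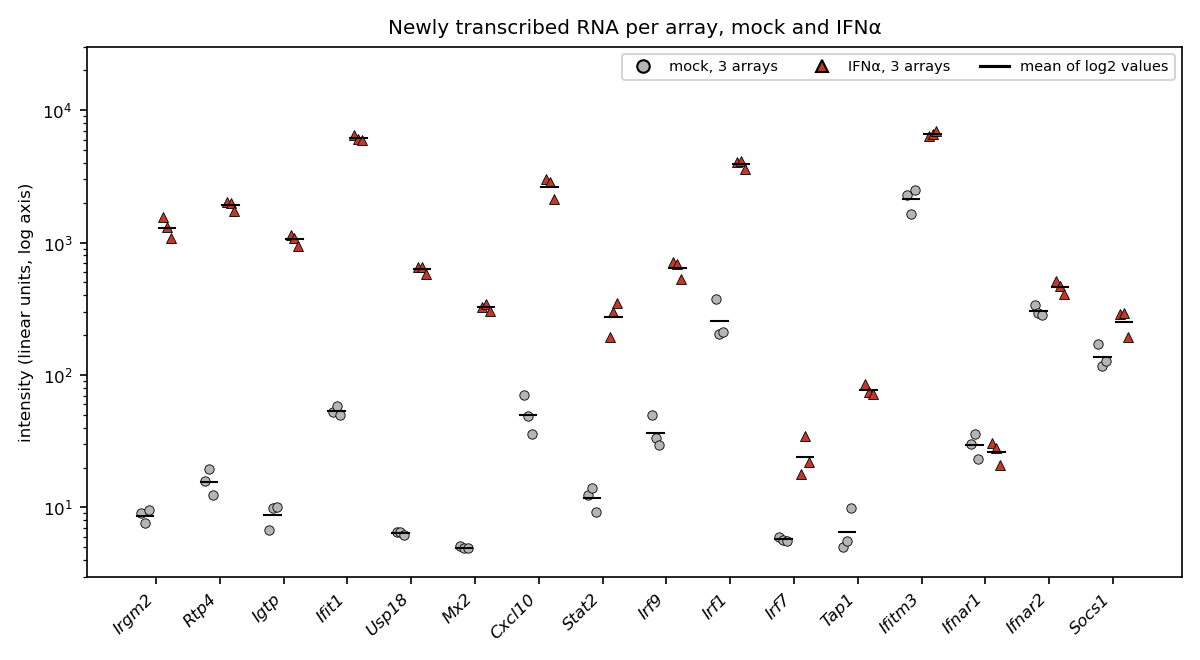
Intensity on each array (vertical axis, linear units on a log axis) of 16 genes in 3 mock arrays (circles) and 3 IFNα arrays (triangles), with the mean of the log2 values as a line. Heights of different genes are not comparable; within a gene the groups are separate except for *Ifnar1*, where they overlap.

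The fold changes of dim genes depend on the scale. In 10 raised genes no mock array reached 8.5, *Usp18* and *Mx2* among them, so their log2 changes rest on mock values near the lower end of the scale (the lowest intensity in the table is 1.6). With 16 added to each intensity before the logarithm, the fold change of 35 of the 72 genes shrank by more than 1.5 times. *Irgm2* then stood at 5.73, *Usp18* at 4.85 and *Mx2* at 4.03, while *Ifit1*, with its higher mock level, stood at 6.47. This change of *Ifit1* was the largest of the 72 genes on that scale.

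The promoters of the raised genes were read from RefSeq (GRCm38.p6), as the 250 bases before and the 50 after each annotated start. Of the 72 raised genes 59 had such an entry, as did 9821 of the 12121 genes. The ISRE core was searched as GAAANNGAAA and the GAS core as TTCNNNGAA, both on either strand, where N is any base and matches of both may overlap. An ISRE core was present in 26 of the 59 (44.1%), against 3.7% of all genes tested and 3.44% of all 32851 promoters in the table. Among these 59 it was present in 13 of the 18 genes raised 16-fold or more (72.2%) and in 13 of 41 with smaller rises (31.7%). *Rtp4*, *Usp18*, *Mx2* and *Gbp6* are among the strongly raised genes that have no entry and are not counted. Of the 110 interferon-list genes that were not called, 85 had an entry, and 23.5% of these held it. The GAS core was found in 10 of the 59 (16.9%), against 8.18% of all genes tested and 8.3% of all promoters, and the GC box GGGCGG in 52.5%, against 66.7% and 35.7%. Among genes raised by IFNα that have an entry, the GAS core was in 4 of 9 that were higher with IFNγ (44.4%). It was in 2 of 26 that were higher with IFNα (7.69%), as tested further on. Of the 3 lowered genes with an entry none held an ISRE or GAS core. A match describes the letters of this window and is no measured site. Shown are the 250 bases before the start of the 5 raised genes with the largest change that have an entry, all of which hold an ISRE core, and of *Irf1*, the raised gene with the largest change that holds a GAS core and no ISRE core. Sequences run 5′ to 3′ along the gene, and capitals mark ISRE and GAS core matches.
Irgm2, chr11:58214727-58214976, plus strand: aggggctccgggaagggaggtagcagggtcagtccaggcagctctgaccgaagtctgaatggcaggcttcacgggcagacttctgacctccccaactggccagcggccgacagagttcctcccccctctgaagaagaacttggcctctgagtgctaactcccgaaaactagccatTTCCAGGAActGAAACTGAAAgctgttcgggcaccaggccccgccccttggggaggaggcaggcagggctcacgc
Igtp, chr11:58199306-58199555, plus strand: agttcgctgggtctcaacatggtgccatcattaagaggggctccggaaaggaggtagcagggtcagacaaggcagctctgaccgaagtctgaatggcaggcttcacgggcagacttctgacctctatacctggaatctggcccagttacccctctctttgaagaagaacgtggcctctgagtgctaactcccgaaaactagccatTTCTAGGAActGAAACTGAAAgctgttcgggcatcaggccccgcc
Ifit1, chr19:34640639-34640888, plus strand: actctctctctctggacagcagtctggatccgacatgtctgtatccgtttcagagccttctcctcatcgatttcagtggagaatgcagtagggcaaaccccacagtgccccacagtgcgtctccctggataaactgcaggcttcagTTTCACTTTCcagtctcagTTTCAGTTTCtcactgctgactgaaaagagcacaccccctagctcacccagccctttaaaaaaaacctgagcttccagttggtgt
Cxcl10, chr5:92348890-92349139, minus strand: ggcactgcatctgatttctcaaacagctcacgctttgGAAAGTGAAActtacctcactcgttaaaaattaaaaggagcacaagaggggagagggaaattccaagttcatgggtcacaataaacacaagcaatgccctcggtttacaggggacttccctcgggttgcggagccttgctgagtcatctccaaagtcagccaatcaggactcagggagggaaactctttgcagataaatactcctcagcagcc
Irgm1, chr11:48871421-48871670, minus strand: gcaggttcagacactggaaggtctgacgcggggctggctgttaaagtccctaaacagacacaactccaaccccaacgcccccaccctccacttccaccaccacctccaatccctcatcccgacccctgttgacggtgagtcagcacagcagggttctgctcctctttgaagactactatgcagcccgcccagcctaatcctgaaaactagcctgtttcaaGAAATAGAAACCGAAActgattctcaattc
Irf1, chr11:53769764-53770013, plus strand: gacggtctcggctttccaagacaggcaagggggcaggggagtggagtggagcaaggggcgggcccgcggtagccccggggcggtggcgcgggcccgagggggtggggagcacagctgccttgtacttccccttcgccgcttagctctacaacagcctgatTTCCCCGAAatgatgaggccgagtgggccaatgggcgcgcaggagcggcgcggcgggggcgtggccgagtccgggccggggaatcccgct

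In *Irgm2* and *Igtp*, the genes with the largest and the third largest log2 change, a GAS core and an ISRE core stand side by side. They begin 75 and 64 bases before the start in *Irgm2* and 45 and 34 bases before it in *Igtp*. *Ifit1* has 2 ISRE cores on the opposite strand, at 104 and 85 bases, and *Cxcl10* has 1 at 213 bases. In *Irgm1* 2 matches overlap, at 30 and 24 bases. The GAS core of *Irf1* lies 90 bases before the first of its 2 annotated starts. The windows of *Oasl2* and *Xaf1*, which rose by 5.53 and 5.50, hold neither core.

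Genes of 2 ISGF3 subunits rose, while no receptor or kinase gene was called. In the list of receptor chains, kinases and ISGF3 subunits 2 of 7 genes were raised (median log2 change 0.12). *Irf9*, the DNA-binding subunit, measured 49.6, 33.4 and 29.5 in the mock arrays and 714, 692 and 531 in the IFNα arrays, which is 4.13 (SE 0.30, adjusted p = 7.45e-07). *Stat2* measured 12.3, 14 and 9.3 in the mock arrays and 194, 299.9 and 352 in the IFNα arrays, a change of 4.55 (SE 0.71, adjusted p = 0.00322). The groups did not overlap, but its SE was the largest of the 72 raised genes. It lost the call without any 1 of the 6 arrays (adjusted p = 0.0103 to 0.0227) and with 16 added (adjusted p = 0.0266). A second *Stat2* probe set measured 8.2, 6.2 and 7.8 in the mock arrays and 254, 332 and 297 in the IFNα arrays and was raised by 5.32 (SE 0.39, adjusted p = 7.48e-07). Neither receptor chain was called: *Ifnar1* measured 30.3, 35.8 and 23.3 in the mock arrays and 30.6, 28.1 and 20.9 in the IFNα arrays (-0.16, adjusted p = 1), and *Ifnar2* measured 337, 292 and 286 in the mock arrays and 515, 471 and 410.2 in the IFNα arrays (0.61, SE 0.19, adjusted p = 0.305). The *Ifnar1* values overlapped between the groups and the *Ifnar2* values did not. The kinase genes *Jak1* and *Tyk2* stood at -0.12 and -0.25 (adjusted p = 1 for both), and *Stat3*, a STAT gene of cytokine signalling, at 0.12 (adjusted p = 1).

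Of 5 IFN regulatory factor genes tested 2 were raised (median log2 change 0.14). *Irf1*, an activator that needs no modification after translation, measured 376, 204 and 213 in the mock arrays and 4070.0, 4151 and 3580.4 in the IFNα arrays, a change of 3.95 (SE 0.24, adjusted p = 7.7e-08). *Irf7*, which amplifies the production of type I IFN, was close to the floor without IFN, at 6.0, 5.7 and 5.6 in the mock arrays and 17.9, 34.9 and 22 in the IFNα arrays, and changed by 2.06 (SE 0.32, adjusted p = 0.00343). The groups did not overlap in either gene. With 16 added, *Irf7* was at 0.89 (adjusted p = 0.185), and it lost the call without mock array 1 (adjusted p = 0.015), mock array 2 (adjusted p = 0.0213), mock array 3 (adjusted p = 0.0203), IFNα array 2 (adjusted p = 0.0262) or IFNα array 3 (adjusted p = 0.0145). *Irf2*, which counteracts *Irf1*, measured 390.1, 182 and 142 in the mock arrays and 423, 209 and 153 in the IFNα arrays (0.14, adjusted p = 1). The first array of both treatments was the highest for *Irf2*, and the groups overlapped. Its sign turned without mock array 3 (-0.16) or IFNα array 1 (-0.27).

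Among 16 genes of negative regulators only *Usp18* was called. The genes of the SOCS family, which inhibit JAK kinases, were not: *Socs1* measured 172, 117 and 127 in the mock arrays and 289, 292 and 192 in the IFNα arrays (0.89, SE 0.36, adjusted p = 0.703). The 3 IFNα values of *Socs1* lay above the 3 mock values, yet the difference did not pass the test. *Socs3* stood at 0.71 (adjusted p = 0.62), *Cish* at 0.82 (adjusted p = 0.985) and *Socs2* at 0.58 (adjusted p = 0.606). The median of the list was 0.22, and 4 genes were higher and 0 lower at an unadjusted p under 0.05.

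The 2 lists of antiviral effectors held more raised genes than any other list. Of 12 IFIT and OAS genes 6 were raised and 0 lowered, with a median log2 change of 2.50. OAS proteins make the messenger 2-5A on binding double-stranded RNA. Beside *Ifit1*, *Oasl2* rose from near the floor, with 5.5, 4.7 and 6.0 in the mock arrays and 225, 239 and 287 in the IFNα arrays (5.53, SE 0.13, adjusted p = 2.22e-12), and *Ifit3* changed by 4.96 (SE 0.27, adjusted p = 2.59e-08). *Oas1a* (4.14), *Oasl1* (3.04) and *Oas1b* (2.68) followed, with adjusted p up to 0.000108. *Eif2ak2*, the gene of the RNA-activated kinase PKR, was called by 1 of its probe sets but not by the main one. Its main probe set measured 54, 55 and 72.9 in the mock arrays and 205, 332 and 391 in the IFNα arrays, without overlap, but missed the test at 2.31 (SE 0.55, adjusted p = 0.0881). A further probe set of *Eif2ak2*, with 34.7, 42.6 and 47.7 in the mock arrays and 261, 346 and 329.6 in the IFNα arrays, passed it at 2.91 (SE 0.38, adjusted p = 0.000545). *Ifit1bl1* stood at 1.04 (adjusted p = 0.0391) and was called only without IFNα array 3 (adjusted p = 0.00959).

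Of 19 genes of Mx proteins and other effectors 10 were raised (median log2 change 1.64). *Xaf1*, a gene linked to cell death, rose by 5.50 (SE 0.27, adjusted p = 7.88e-09), and *Samd9l*, which restricts translation, by 4.26 (SE 0.21, adjusted p = 6.27e-09). *Samd9l* had a substantial level without IFN, at 138, 230.1 and 228 in the mock arrays and 3704, 3855 and 3584 in the IFNα arrays, and its groups were far apart. *Rsad2*, whose product viperin makes a chain-terminating nucleotide, measured 8.6, 8.4 and 8.4 in the mock arrays and 77.5, 73.2 and 52.9 in the IFNα arrays (2.98, SE 0.14, adjusted p = 5.3e-09). *Mx1* rose by 2.51 (SE 0.12, adjusted p = 3.79e-09). The remaining rises in the list were those of *Ifi35* (3.42, SE 0.21), *Phf11d* (2.75, SE 0.26), *Ifitm3* (1.64, SE 0.22), a gene that blocks viral entry, and *Zc3hav1* (1.30, SE 0.12), which encodes the antiviral protein ZAP. Among members that did not pass, *Ifi27* stood at 1.67 (adjusted p = 0.0254), *Samhd1* at 1.41 (adjusted p = 0.023), and *Isg20* passed the p threshold at 0.84 (adjusted p = 0.0048) but not the 2-fold limit.

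IFN-inducible GTPases, best known from resistance to intracellular parasites and bacteria, rose in 2 families. Of 6 immunity-related GTPase genes 5 were raised, with the highest median of any list (5.15). *Irgm1* measured 57.5, 42.7 and 29 in the mock arrays and 2194, 2108 and 1991 in the IFNα arrays, a change of 5.66 (SE 0.29, adjusted p = 1.2e-08). *Iigp1* measured 12.2, 11.4 and 11.6 in the mock arrays and 356, 267 and 262 in the IFNα arrays (4.64, SE 0.17, adjusted p = 3.28e-10), and *Ifi47* changed by 3.98 (SE 0.31, adjusted p = 1.52e-06). In each of these genes the 3 IFNα values exceeded all mock values. Of 6 guanylate-binding protein genes 4 were raised (median 3.23): *Gbp6* by 5.69 (SE 0.21, adjusted p = 3.19e-10), *Gbp3* by 5.15 (SE 0.33, adjusted p = 1.34e-07), *Gbp7* by 4.73 (SE 0.22, adjusted p = 3.87e-09) and *Gbp2* by 1.72 (SE 0.25, adjusted p = 0.00159). *Gbp2* was expressed without IFN, at 153, 134 and 157 in the mock arrays and 544, 483 and 440.1 in the IFNα arrays, and lost the call without mock array 2 (adjusted p = 0.0138), IFNα array 1 (adjusted p = 0.0129) or IFNα array 2 (adjusted p = 0.0101).

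Of 16 genes of nucleic acid sensors and their adaptors 4 were raised (median 0.55), 3 of them RNA sensors. *Ddx58*, now named Rigi, encodes the RNA sensor RIG-I and measured 19.6, 25 and 21.8 in the mock arrays and 636, 460.2 and 455 in the IFNα arrays, a change of 4.54 (SE 0.17, adjusted p = 3.19e-10). *Ifih1*, the gene of the sensor MDA5, changed by 3.18 (SE 0.18, adjusted p = 3.56e-08) and *Tlr3* by 2.33 (SE 0.20, adjusted p = 7.23e-06). *Ifi204*, a DNA sensor gene, changed by 1.46 (SE 0.17, adjusted p = 0.000191). *Dhx58*, the third member of the RIG-I family, measured 37.1, 24.5 and 31 in the mock arrays and 83.7, 98.2 and 65.2 in the IFNα arrays. At 1.42 (SE 0.26, adjusted p = 0.0119) it missed the call, which it passed with the replicate number as a block (adjusted p = 0.000521) and with 16 added (adjusted p = 0.00856). The adaptor gene *Myd88* stood at 0.66 (adjusted p = 0.49).

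Genes that modify proteins rose in part. *Trim25*, a ubiquitin and ISG15 ligase that acts on RIG-I, was the only 1 of 5 genes of ISG15 conjugation tested to be raised (list median 0.08). *Isg15* itself has no probe set of 1 symbol and was not analysed here. *Trim25* measured 1016, 884 and 1019 in the mock arrays and 6998, 6918 and 6337 in the IFNα arrays, a change of 2.80 (SE 0.11, adjusted p = 7.87e-10). Of 12 genes of ADP-ribosyltransferases and their partner *Dtx3l* 4 were raised (median 0.21). These were *Parp14* (4.87, SE 0.15, adjusted p = 2.87e-11), *Dtx3l* (4.83, SE 0.27, adjusted p = 2.86e-08), *Parp9* (4.01, SE 0.16, adjusted p = 5.22e-10) and *Parp12* (2.59, SE 0.16, adjusted p = 1.27e-07). *Dtx3l* and *Parp9* encode partners in a ubiquitin ligase complex. The 4 genes had no overlap between the groups, and the list's next gene, *Parp3*, stood at 1.05 (adjusted p = 0.0421, or 0.00838 with the replicate number as a block). Of 16 TRIM and nuclear body genes 5 were raised (median 0.60). *Trim21*, an intracellular antibody receptor, rose most, with 8.1, 7.7 and 7.8 in the mock arrays and 300.5, 226 and 212 in the IFNα arrays (4.95, SE 0.19, adjusted p = 5.19e-10). The others were *Trim12c* (2.94, SE 0.21), *Trim30a* (2.82, SE 0.25), *Trim30d* (1.68, SE 0.21) and *Trim56* (1.34, SE 0.13). *Daxx*, a histone chaperone gene of nuclear bodies, stood at 1.69 (adjusted p = 0.0536, or 0.000506 with the block), and *Pml*, which organises them, at 1.31 (adjusted p = 0.0293, or 0.0015 when only the 6 arrays were fitted). A further *Pml* probe set was called at 1.28 (SE 0.20, adjusted p = 0.00322). Of 3 schlafen genes *Slfn8* was raised by 4.06 (SE 0.18, adjusted p = 2.44e-09), and *Slfn9* stood just under 2-fold at 0.98 (adjusted p = 0.00902).

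Few chemokine and antigen presentation genes were raised. Of 19 chemokine and cytokine genes 1 was raised, *Cxcl10*, whose product attracts T cells. It measured 70.4, 49.1 and 35.6 in the mock arrays and 3022, 2846 and 2130.5 in the IFNα arrays, a change of 5.73 (SE 0.43, adjusted p = 9.96e-07), with no overlap. Related chemokine genes were not called: *Cxcl9* measured 5.8, 7.9 and 6.1 in the mock arrays and 10.0, 13.1 and 10.0 in the IFNα arrays (0.74, adjusted p = 0.215) and *Cxcl11* stood at 0.12 (adjusted p = 1). *Il6* was high in both groups, at 2826, 2905 and 2154 in the mock arrays and 5610.3, 5929.5 and 4818 in the IFNα arrays. Its change was 1.06 (SE 0.20, adjusted p = 0.0178), and the adjusted p was 0.00395 with the replicate number as a block. The list median was 0.16.

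Of 17 antigen presentation genes 3 were raised (median 0.35). *Tap1*, a subunit of the peptide transporter, measured 5.0, 5.6 and 9.9 in the mock arrays and 86.2, 74.8 and 71.7 in the IFNα arrays, a change of 3.57 (SE 0.22, adjusted p = 7.7e-08). *Tapbp*, which loads peptides, changed by 1.63 (SE 0.13, adjusted p = 3.43e-06), and *B2m*, the invariant chain of class I molecules, by 1.06 (SE 0.18, adjusted p = 0.00633). *B2m* lost the call without mock array 2 (adjusted p = 0.0332), mock array 3 (adjusted p = 0.0136), IFNα array 1 (adjusted p = 0.0486), IFNα array 2 (adjusted p = 0.0219) or IFNα array 3 (adjusted p = 0.0197), and also without the filter on dim probe sets (adjusted p = 0.011). The proteasome subunit gene *Psmb9* stood at 1.37 (adjusted p = 0.0109, or 0.00215 with the replicate number as a block and 0.00946 among the brighter probe sets alone). *Nlrc5*, the transactivator of class I genes, was at -0.01 (adjusted p = 1), and the class I gene *H2-K1* at 0.60 (adjusted p = 0.762).

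Over the 14 interferon lists together, 49 of 159 genes (30.8%) were raised and 0 lowered, against 0.594% raised among all genes, and the median log2 change was 0.52. At an unadjusted p under 0.05, 85 were higher and 0 lower by limma. The lists name genes known for IFN responses and were chosen with earlier results of these data known, so this is a description of them. Of 201 genes listed, 22 had no probe set of 1 symbol and 20 stayed below the filter, and these were not tested. None of the 35 immediate-early, 17 NF-κB feedback, 13 cell death and 9 housekeeping genes was called in either direction (5 higher and 1 lower at an unadjusted p under 0.05). Their medians were 0.02, 0.22, 0.18 and -0.11. The largest differences there were *Bcl3*, an NF-κB partner, at 1.39 (adjusted p = 0.407) with 227, 90.8 and 95.8 in the mock arrays and 606, 308 and 190.2 in the IFNα arrays, and *Fosb* at -0.80 (adjusted p = 0.996). The *Bcl3* values overlapped between the groups, and the first array was the highest of both treatments.

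**Figure D3:**
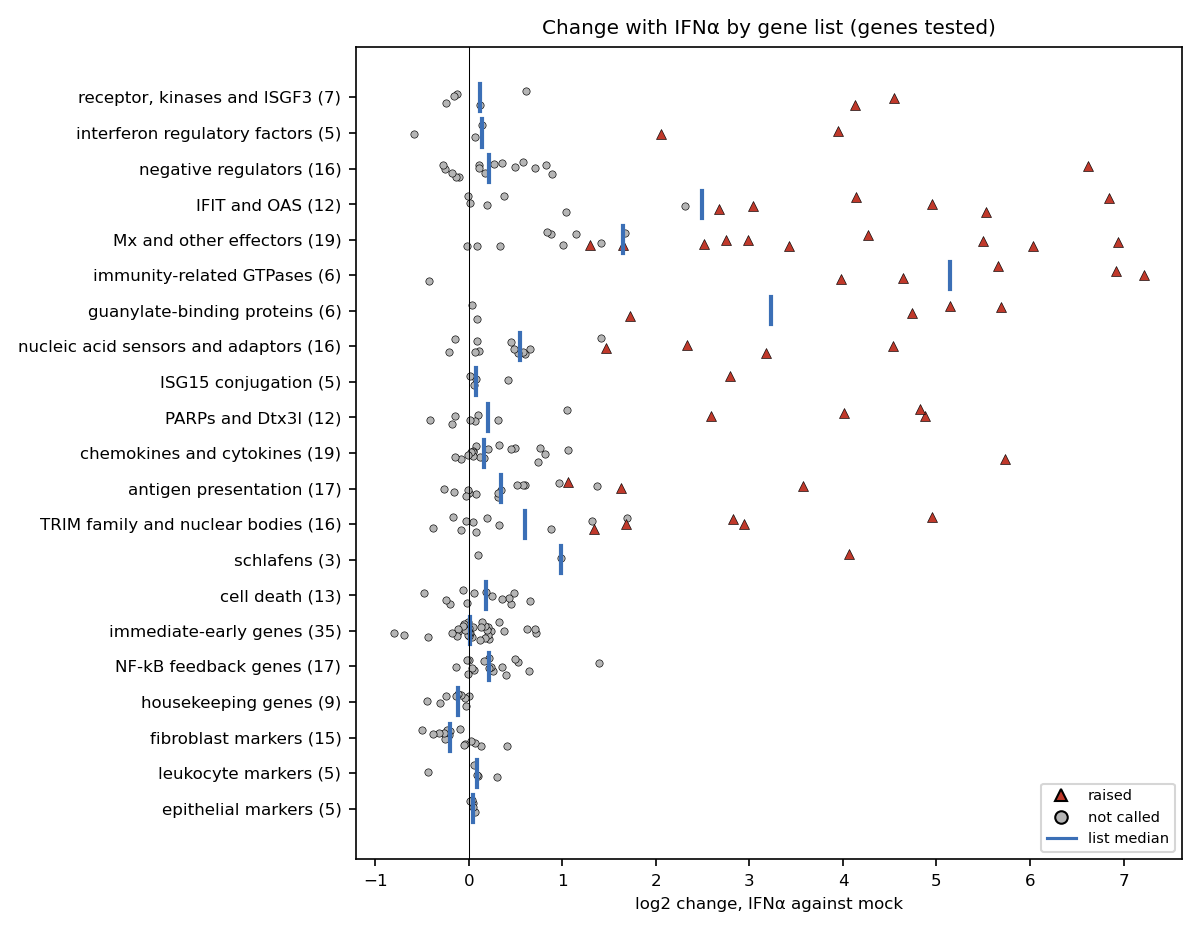
Log2 change with IFNα against mock (horizontal axis) for the tested genes of each list, with the number of genes in brackets. Red triangles are raised genes, grey circles genes not called and blue lines list medians, which are highest for immunity-related GTPases (5.15) and lie between -0.20 and 0.22 in the lower 7 lists.

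A further 23 raised genes stood in no list and are named because they were raised. The largest rise among them was that of *Tor3a*, a torsin ATPase gene, with 23.4, 22.9 and 23.1 in the mock arrays and 449, 415 and 377 in the IFNα arrays (4.16, SE 0.16, adjusted p = 6.43e-10). *Helz2*, a helicase and coactivator gene, measured 144, 139 and 129.7 in the mock arrays and 2612, 2137 and 1818 in the IFNα arrays (3.98, SE 0.16, adjusted p = 7.14e-10). The groups were separate by a wide margin in both. *Cd274*, the gene of the checkpoint ligand PD-L1, measured 10.2, 9.0 and 6.9 in the mock arrays and 74.2, 85.9 and 68 in the IFNα arrays, a change of 3.14 (SE 0.14, adjusted p = 2.03e-09). *Tent5a*, a noncanonical poly(A) polymerase gene, changed by 2.87 (SE 0.15, adjusted p = 9.82e-09) and *Rnf213*, a large ubiquitin ligase gene, by 2.75 (SE 0.14, adjusted p = 7.88e-09). Genes of RNA metabolism among the smaller rises were *Znfx1* (2.23), *Pnpt1* (1.39), the decapping enzyme gene *Dcp2* (1.03) and the RNA-editing enzyme gene *Adar* (1.01). *Rnf31* (2.12), which makes linear ubiquitin chains, and *N4bp1* (1.26) act on NF-κB signalling. *Pnp* (1.48) is an enzyme gene of purine salvage, *Msrb3* (1.14) a methionine sulfoxide reductase gene, *Tcirg1* (1.09) a proton pump subunit gene and *Ogfr* (1.09) a receptor gene of opioid growth factor. The others were *Gm20559* (3.46), *Lgals3bp* (2.63), *Mitd1* (1.80), *Ifi202b* (1.61), *Apol6* (1.59), *Ifi207* (1.57), *Tdrd7* (1.55) and *Tmcc3* (1.01). Probes of close relatives such as *Ifi202b*, *Ifi204* and *Ifi207* may read each other's RNA.

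Several of these smaller rises lost the call when 1 array was left out. *Adar* lost the call without any 1 of the 6 arrays (adjusted p = 0.0113 to 0.0559), without the filter on dim probe sets (adjusted p = 0.0128), and with median centring and with 16 added, where it was under 2-fold. *Znfx1* lost it without mock array 2 (adjusted p = 0.0124), mock array 3 (adjusted p = 0.0115), IFNα array 1 (adjusted p = 0.011) or IFNα array 2 (adjusted p = 0.0131), *Rnf31* without mock array 2 (adjusted p = 0.0157), mock array 3 (adjusted p = 0.017), IFNα array 1 (adjusted p = 0.022) or IFNα array 2 (adjusted p = 0.0219) and *Tcirg1* without mock array 2 (adjusted p = 0.0144), IFNα array 1 (adjusted p = 0.0103), IFNα array 2 (adjusted p = 0.0125) or IFNα array 3 (adjusted p = 0.0105). *Ogfr* lost it without mock array 2 (adjusted p = 0.0158), mock array 3 (adjusted p = 0.0104), IFNα array 1 (adjusted p = 0.0103) or IFNα array 2 (adjusted p = 0.0154), *N4bp1* without mock array 2 (adjusted p = 0.0155) or mock array 3 (adjusted p = 0.0156) and *Apol6* without mock array 2 (adjusted p = 0.0145) or mock array 3 (adjusted p = 0.0126). *Tdrd7* lost it without IFNα array 1 (adjusted p = 0.0103) or IFNα array 3 (adjusted p = 0.0122), *Msrb3* without IFNα array 1 (log2 change 0.97) and *Tmcc3* without mock array 3 (adjusted p = 0.0163) or IFNα array 1 (adjusted p = 0.0183). With 16 added, *Apol6* (0.56, adjusted p = 0.179), *Ifi207* (0.89) and *Tmcc3* (0.99) were under 2-fold, the last also after median centring.

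Falls were fewer and smaller than rises. *Arrdc4*, an arrestin-domain gene, measured 74.9, 71.6 and 57.4 in the mock arrays and 17.4, 28.2 and 15.3 in the IFNα arrays, a change of -1.79 (SE 0.22, adjusted p = 0.000354). *Map2k6*, a kinase gene upstream of p38, measured 48.1, 31.6 and 33.9 in the mock arrays and 15.8, 11 and 13 in the IFNα arrays (-1.50, SE 0.18, adjusted p = 0.000252). *Mkx*, a homeobox gene of tendon cells, measured 46.4, 62.4 and 46.9 in the mock arrays and 15.5, 17.4 and 23.6 in the IFNα arrays (-1.47, SE 0.21, adjusted p = 0.00137). In these 3 genes all IFNα values lay below all mock values. *Itgb8*, an integrin chain that activates TGFβ, measured 89.7, 113 and 82.4 in the mock arrays and 43.6, 37.9 and 30.6 in the IFNα arrays (-1.35, SE 0.15, adjusted p = 9.48e-05), and *Scara5*, a ferritin receptor gene, 16.7, 10.3 and 10.1 in the mock arrays and 6.1, 5.3 and 5.4 in the IFNα arrays (-1.10, SE 0.16, adjusted p = 0.00156). *Ccdc93*, which acts in endosomal recycling, measured 341, 417 and 355 in the mock arrays and 202, 179 and 148 in the IFNα arrays (-1.08, SE 0.16, adjusted p = 0.00252). None of the 6 is in an interferon list. IFNγ, against the same mock arrays, also lowered *Itgb8* (-1.71), *Map2k6* (-1.45), *Mkx* (-1.21) and *Scara5* (-1.02). *Ccdc93* (-0.92) and *Arrdc4* (-0.79) were not called with IFNγ. CHX alone was below mock for *Map2k6* (10.9, 8.9 and 9.1), *Mkx* (14.4, 13.1 and 19.5) and *Scara5* (5.4, 4.8 and 4.7). The same held for *Itgb8* and *Ccdc93*, but not for *Arrdc4* (142.8, 111.6 and 94.4). What underlies these shared differences from mock was not tested. Fitted from the 6 arrays alone, all 6 lowered genes missed the call (adjusted p = 0.0653 to 0.202). Leaving out 1 array ended it for *Mkx* without mock array 2 (adjusted p = 0.012), IFNα array 1 (adjusted p = 0.0112) or IFNα array 2 (adjusted p = 0.0111), for *Ccdc93* without mock array 2 (adjusted p = 0.0214), mock array 3 (adjusted p = 0.0115), IFNα array 2 (adjusted p = 0.0133) or IFNα array 3 (adjusted p = 0.0198) and for *Scara5* without mock array 1 (log2 change -0.87), IFNα array 2 (adjusted p = 0.0131) or IFNα array 3 (adjusted p = 0.0113). The 11 lowered probe sets became 6 without mock array 2, 7 without IFNα array 3, 2 in the fit of the 6 arrays and 5 with 16 added, where *Map2k6* (-0.87), *Mkx* (-0.96) and *Scara5* (-0.39) were under 2-fold.

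Different probe sets of a gene did not always move together. Of the 72 raised genes 33 had more than 1 probe set among those tested. In 16 of these all were raised, and in 17 at least 1 was not. Among these 17 the lowest probe set was near 0 for *Rsad2* (0.03), *Rnf213* (-0.0052), *Trim12c* (0.05) and *Tlr3* (0.17). It was also near 0 for *Trim30d* (0.15), *Tdrd7* (0.03) and *Zc3hav1* (0.04). Conversely, 4 genes were raised by a probe set other than the main one: *Eif2ak2* and *Pml*, described above, *Sp100* and *Shisa5*. For *Sp100*, a nuclear body gene, the called probe set measured 7.3, 6.8 and 6.8 in the mock arrays and 21.6, 23.7 and 16.1 in the IFNα arrays (1.54, SE 0.15, adjusted p = 2.43e-05) and the main one stood at 0.20 (adjusted p = 1). For *Shisa5* they stood at 1.05 and 0.96, with adjusted p = 0.00225 and 0.00117. Among the falls the same held for *Acta2*, the gene of smooth muscle actin. Its called probe set measured 189.5, 206 and 159 in the mock arrays and 34.5, 60.3 and 36.6 in the IFNα arrays (-2.12, SE 0.26, adjusted p = 0.00031), whereas the main one, with 6679, 6388 and 7012 in the mock arrays and 4484, 5125 and 4974 in the IFNα arrays, stood at -0.46 (adjusted p = 0.302). *Ypel2* (-1.18), *Cilk1* (-1.04) and *Pacsin3* (-1.02) were also lowered by a secondary probe set only, and 1 lowered probe set carries no gene name. With IFNγ these probe sets of *Ypel2* (-1.41), *Cilk1* (-1.36) and *Pacsin3* (-1.14) were lowered too, whereas that of *Acta2* stood at -0.20.

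The comparison with IFNγ asks which of these genes respond more to 1 type of IFN. Both IFNs were given at 100 U/ml and set against the same mock arrays, so the difference was tested directly between the IFNα and IFNγ arrays. Whether 100 U/ml of each is an equal dose was not tested. Only 1 dose and 1 time were measured, and the differences hold for these. Of all genes 184 (1.52%) were higher with IFNγ and 62 (0.512%) higher with IFNα. Of the 72 genes raised by IFNα, 33 were higher with IFNα and 12 higher with IFNγ, and in the interferon lists 26 and 25 of 159 were (16.4% and 15.7%). When only the IFNα and IFNγ arrays were fitted, 17 list genes were higher with IFNα. The antiviral effectors made up most of the IFNα side, with 6 of 12 IFIT and OAS genes, 9 of 19 Mx and other effectors and none of the GTPases of either family.

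Several genes that IFNα raised strongly were far lower with IFNγ. *Mx2* measured 5.0, 5.0 and 4.9 with IFNγ, close to its mock level of 5.1, 4.9 and 4.9, against 326, 346 and 305 with IFNα, and the difference of IFNγ minus IFNα was -6.03 (SE 0.08, adjusted p = 5.67e-15). *Usp18* measured 9.4, 9.0 and 9.8 with IFNγ, a difference of -6.06 (SE 0.15, adjusted p = 9.56e-12). *Ifit1* measured 175, 173 and 139, which is above mock by 1.60 on the log2 scale and below IFNα by the difference -5.25 (SE 0.19, adjusted p = 6.22e-10). *Ifit3* (-4.59, SE 0.27, adjusted p = 1.34e-07), *Ddx58* (-3.49, SE 0.17, adjusted p = 1.54e-08) and *Oas1a* (-3.27, SE 0.12, adjusted p = 7.64e-10) were also lower with IFNγ than with IFNα. *Ifih1*, *Oasl1*, *Rsad2*, *Mx1* and *Irf7* had log2 changes of 0.05, -0.06, 0.03, 0.01 and 0.03 with IFNγ, against 3.18, 3.04, 2.98, 2.51 and 2.06 with IFNα.

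Many GTPase genes had larger values with IFNγ: 5 of 6 immunity-related GTPase and 3 of 6 guanylate-binding protein genes were higher with IFNγ. *Iigp1* changed by 8.15 with IFNγ and 4.64 with IFNα, a difference of 3.51 (SE 0.17, adjusted p = 1.72e-08). *Gbp2* changed by 5.04 and 1.72 (3.31, SE 0.25, adjusted p = 1.23e-06). *Irgm2* stood at 8.84 and 7.22 (1.62, SE 0.14, adjusted p = 5.44e-06), so that even the largest IFNα response of a named gene was exceeded. *Irf1* was also higher with IFNγ, at 13276, 12456 and 11533 (1.66, SE 0.24, adjusted p = 0.000674), as was *Tap1* (2.30, SE 0.22, adjusted p = 1.12e-05). The differences of *Stat2* (-0.37, SE 0.71, adjusted p = 1), *Irf9* (-0.46, SE 0.30, adjusted p = 0.981) and *Cxcl10* (1.03, SE 0.43, adjusted p = 0.445) missed the threshold. Genes not called with IFNα and higher with IFNγ included *Cxcl9* (7.38, SE 0.21, adjusted p = 3.78e-11), *Nlrc5* (4.59, SE 0.15, adjusted p = 1.45e-10), *Ccl11* (3.89, SE 0.20, adjusted p = 3.21e-08), the DNA-sensing adaptor gene *Sting1* (3.18, SE 0.51, adjusted p = 0.00169), *Nod1* (3.84, SE 0.20, adjusted p = 3.21e-08) and *Samhd1* (3.75, SE 0.28, adjusted p = 1.06e-06). Among the regulators *Socs1* differed by 2.28 (SE 0.36, adjusted p = 0.0016).

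**Figure D4:**
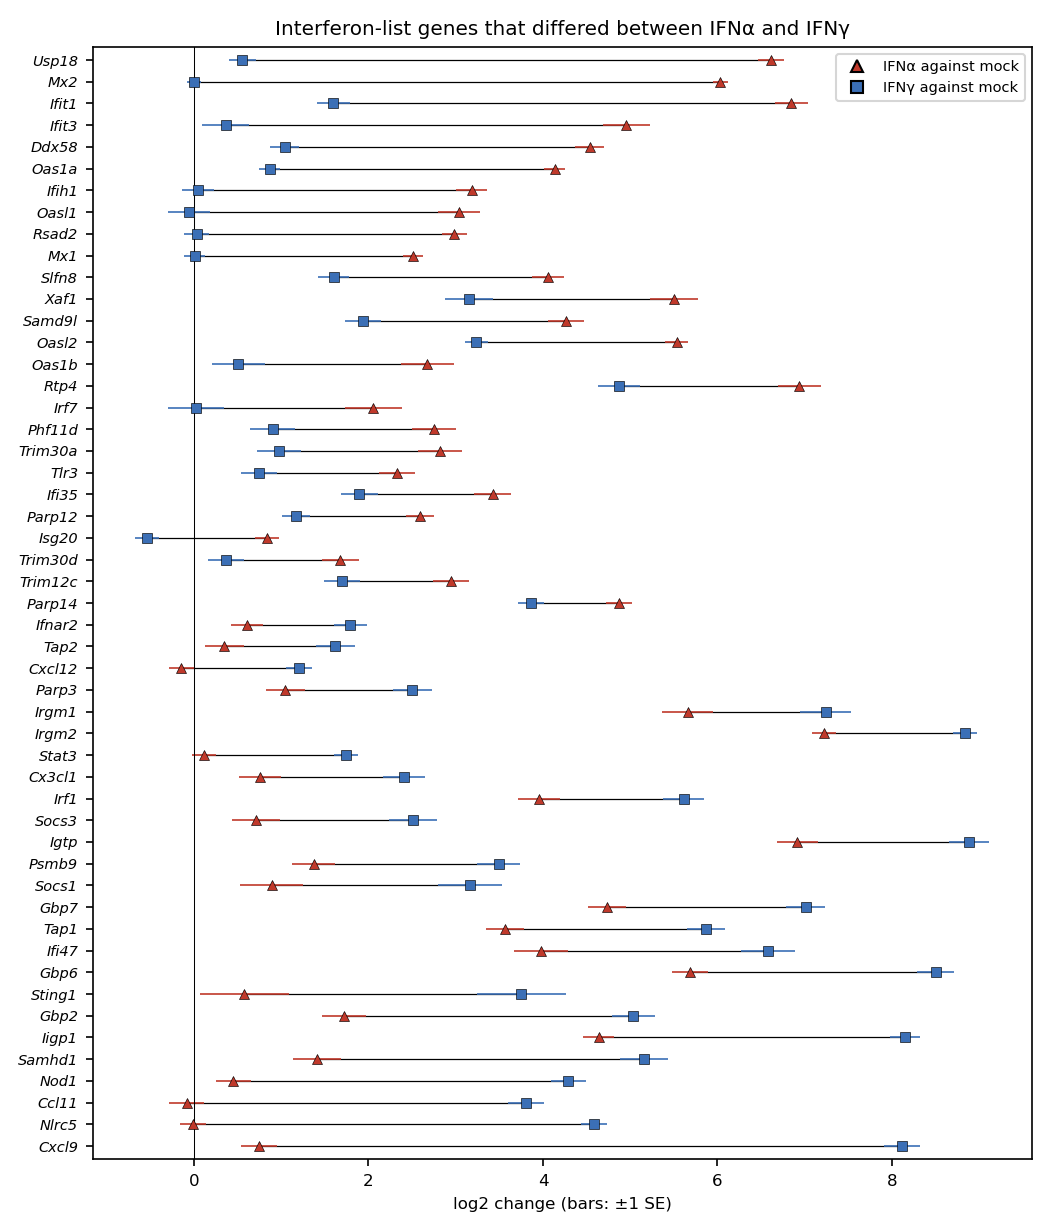
Log2 change against mock (horizontal axis, bars of 1 SE) with IFNα (triangles) and IFNγ (squares) for the 51 interferon-list genes called in the direct test between both IFNs. Genes such as *Usp18* and *Mx2* stand far to the right with IFNα alone, and GTPase genes such as *Iigp1* and *Gbp6* are high with both and higher with IFNγ. Both changes use the same 3 mock arrays.

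CHX blocks the synthesis of new protein, and the arrays with CHX show whether the IFNα response differs when that is blocked. The difference of responses (IFNα with CHX against CHX, minus IFNα against mock) passed the test above 0 in 36 of all genes (0.297%) and below 0 in 0 (0%). At an unadjusted p under 0.05 by limma, 541 of all genes lay above 0 and 78 below, and 63 and 4 of the interferon-list genes. Of the 72 raised genes 21 had a larger rise with CHX and 0 a smaller one, and of the interferon-list genes 22 of 159 (13.8%) did, or 12 in a fit of the arrays of these 4 treatments alone. The rise of *Mx2* went from 6.03 to 7.78, a difference of 1.75 (SE 0.12, adjusted p = 4.55e-06). That of *Rsad2* went from 2.98 to 5.87 (2.89, SE 0.20, adjusted p = 5.13e-06), and that of *Tap1* from 3.57 to 6.08 (2.51, SE 0.30, adjusted p = 0.00112). *Cxcl9*, *Cxcl11*, *Nlrc5* and *Oas1c*, which were not called without CHX, changed by 6.26, 4.61, 3.42 and 2.26 with it. *Oas1c* was near the lower end of the scale without CHX, at 6.0, 5.9 and 5.8 in the mock arrays and 6.0, 6.0 and 5.9 in the IFNα arrays. With 16 added, the changes without CHX shrank from 0.12 to 0.04 for *Cxcl11* and from -0.0078 to -0.0022 for *Nlrc5*. For such dim genes a missing call does not show the absence of a response. *Irf1* changed by 2.71 and *Cxcl10* by 4.26 with CHX, against 3.95 and 5.73 without it, but neither difference passed the test. They were -1.24 (SE 0.34, adjusted p = 0.312) for *Irf1* and -1.47 (SE 0.61, adjusted p = 1) for *Cxcl10*. The levels of both were higher with CHX alone than in mock cells: *Irf1* measured 2465, 1501 and 1319.9 with CHX alone and 11268, 11656 and 10501 with CHX and IFNα, and *Cxcl10* 1530.3, 584 and 324 and 15789.8, 13847 and 9237. With IFNα both thus reached higher values with CHX than without it. For *Mx2*, by comparison, the values were 5.1, 5.1 and 5.0 with CHX alone and 1213, 1155 and 984 with both. Among the lowered genes *Itgb8* was at 0.02 with CHX, against -1.35 without it, a difference of 1.37 (SE 0.21, adjusted p = 0.00762). Its intensity was 34, 30.1 and 30.1 with CHX alone and 31.9, 31.1 and 32.2 with CHX and IFNα, so that CHX alone was already as low as IFNα without CHX, at 43.6, 37.9 and 30.6.

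**Figure D5:**
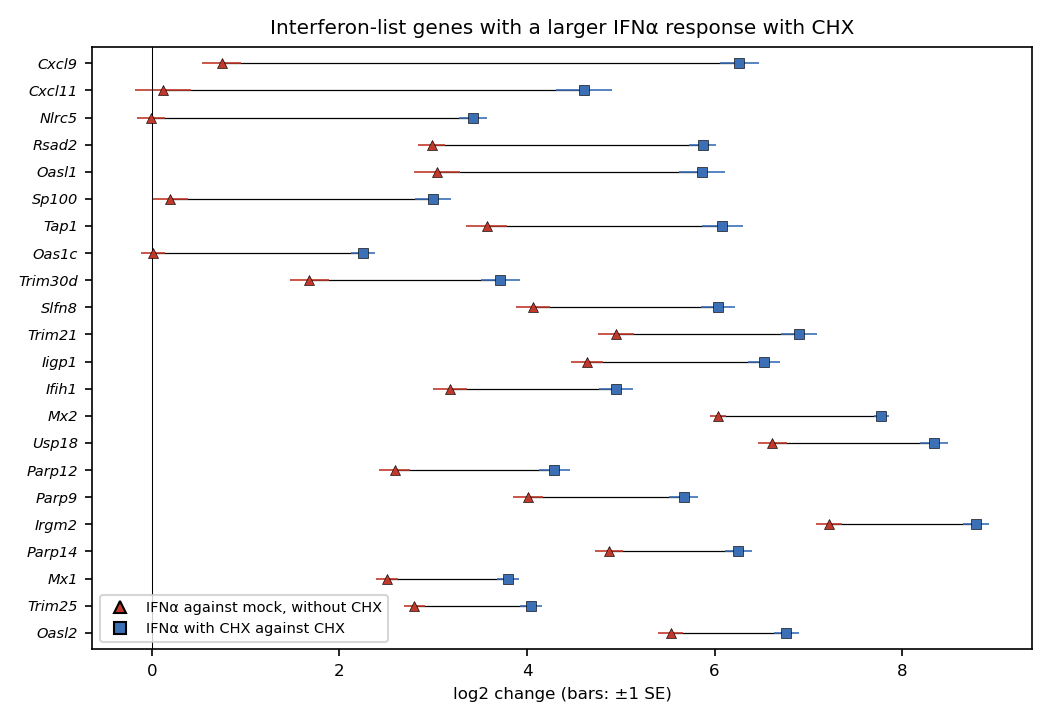
Log2 change with IFNα (horizontal axis, bars of 1 SE) without CHX (triangles) and with CHX (squares) for the 22 interferon-list genes whose response differed. All 22 lie further to the right with CHX, by 1.23 (*Oasl2*) to 5.52 (*Cxcl9*).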

How the data were processed

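Newly transcribed, 4sU-labelled RNA of 18 NIH-3T3 samples was hybridised to Affymetrix MG430 2.0 arrays. The deposited values are linear intensities, 1 per probe set and array, which the authors made by gc-RMA (background correction, normalization and probe summary), per the methods. The submitters' processing notes name Affymetrix Expression Console, with no version. The genome build is not given in the sources used here. An array has no read depth, so precision depends on the number of arrays and on the spread of each probe set. The median SE of a log2 change was 0.20, and among the raised genes the SE ran from 0.08 (*Mx2*) to 0.71 (*Stat2*).

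Control probe sets were removed, and of 45037 the 27773 with the highest maximum over the 18 arrays were kept, in place of the present calls of the methods. Log2 intensities, with no constant added, were fitted with limma 3.58.1 in R 4.3.3, with 1 mean per treatment over all 18 arrays (12 residual and 2.05 prior degrees of freedom). Calls needed an adjusted p under 0.01 (Benjamini-Hochberg over all probe sets kept) and a 2-fold change. A gene was its probe set with 1 annotated symbol and the highest mean. Of all probe sets 34945 had 1 symbol, 932 several and 9160 none, and none was named from several. Probes may also read a closely related gene.

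The comparison and the gene lists were chosen with earlier results of these data known. Genes were named from the 20 largest rises, all falls, up to 6 called and 2 uncalled genes of each list with the largest changes, a set of receptor, STAT, IRF and SOCS genes, and the 8 largest differences of each kind between the IFNs and with CHX. The 27 other raised genes, genes of secondary probe sets, markers and some uncalled list genes were added after their values were seen. Array numbers in the labels were checked as pairs: deviations of same-numbered mock and IFNα arrays correlated at 0.72, 0.32 and 0.59, so the number was taken to pair them, although mock array 2 correlated with IFNα array 3 at 0.37 and mock array 3 with IFNα array 2 at 0.17. The main fit did not use this pairing, because the methods name no replicate block. It entered only as an alternative. Alternatives were 16 or 1 added before the logarithm, no filter and a stricter one, quantile normalization, median centring, only the arrays compared, the replicate number as a block, and each array left out in turn. The procedure was tested on simulated data. Promoters came from RefSeq (GRCm38.p6).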

Additional observations from a re-analysis of the deposited data

Results flagged for a closer look

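For 22 genes of the interferon lists the test of the difference between the IFNα response with and without CHX passed, at adjusted p between 7.2e-07 and 0.0072. Each value in brackets is the log2 response with CHX minus that without it. Genes whose main probe set was not raised without CHX were *Cxcl9* (5.52), *Cxcl11* (4.49), *Nlrc5* (3.43), *Sp100* (2.80) and *Oas1c* (2.24). Of these, *Cxcl9* and *Oas1c* were near the lower end of the scale in the mock arrays, so the missing call does not show the absence of a response. A second *Sp100* probe set, raised without CHX by 1.54, stood at 0.41 with it, and its difference of -1.13 did not pass the test (adjusted p = 0.0386). Genes that IFNα also raised without CHX were *Rsad2* (2.89), *Oasl1* (2.83), *Tap1* (2.51), *Trim30d* (2.04), *Slfn8* (1.98), *Trim21* (1.95), *Iigp1* (1.89), *Ifih1* (1.77), *Mx2* (1.75), *Usp18* (1.72), *Parp12* (1.70), *Parp9* (1.66), *Irgm2* (1.57), *Parp14* (1.38), *Mx1* (1.29), *Trim25* (1.25) and *Oasl2* (1.23). The differences of all 22 main probe sets were above 0, and what underlies them was not tested.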

How the results depend on the processing

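The 128 raised probe sets ranged from 111 to 121 without 1 array and from 113 (16 added) to 129 (quantile normalization) over the other scales, filters and normalizations, and numbered 88 when only the compared arrays were fitted. With the replicate number as a block there were 140, which include all 128. The pairing changed the call of *Dhx58*, *Parp3*, *Il6*, *Psmb9* and *Daxx* and of no other named gene, and took the raised chemokine and cytokine genes from 1 to 2. The 11 lowered probe sets were less stable: 6 to 14 without 1 array, 5 with 16 added, 2 with only the compared arrays, and 16 with the block. With only the compared arrays, list genes higher with IFNα than with IFNγ fell from 26 to 17, and those with a larger response with CHX from 22 to 12. The causes were not tested, except that this fit has fewer arrays behind its spread. Of the values of named genes under alternatives 1704 kept their direction and their side of the threshold, 102 lost the call, 11 gained it and 11, of 6 genes that were not called, changed sign: *Oas1c* with quantile normalization (-0.0079) and median centring (-0.0082) and, over the fits without 1 array, *Irf2* (-0.27 to 0.57), *Arih1* (-0.043 to 0.16), *Epcam* (-0.0089 to 0.15), *Krt18* (-0.015 to 0.12) and *Nlrc5* (-0.050 to 0.047). Of the list counts 178 stayed within 1.5 times and 18 did not. No scaling moved the median of all probe sets by 0.1.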
